A study of Mus musculus with 6 samples.

Results

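The IFIT family, the interferon-induced proteins with tetratricopeptide repeats, was followed through its members Ifit1, Ifit2, Ifit3 and Ifit3b. They were chosen by gene name among the non-control probes of the arrays, with the older name I830012O16Rik read as Ifit3b, and they make up 4 of the 37325 gene names there. Each member had 1 probe, printed as 1 spot, and all 4 passed the filter on dim probes that left 19500 genes for testing. The samples were monocytes of C57BL/6J bone marrow, taken from mice aged 6 to 8 weeks and enriched with magnetic beads. One group was cultured for 60 h in 20 ng/mL M-CSF with 100 U of IFN-beta added (3 samples, below the IFN-beta arrays), and the control group for the same time in M-CSF alone (3 samples). M-CSF, a growth factor for monocytes and macrophages, was therefore present in both groups, and 1 dose and 1 time of IFN-beta were measured. RNA of each sample was hybridised to 1 array in 1 colour.

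IFN-beta, a type I interferon, binds a receptor whose Janus kinases phosphorylate transcription factors, Stat2 among them. These join Irf9 in a complex called ISGF3, which binds the interferon-stimulated response element (ISRE) in promoters, and IFIT genes are among its best known targets. IFIT proteins have no known enzyme activity and act by binding: Ifit1 binds RNA whose cap lacks ribose methylation and blocks its translation, and IFIT proteins also bind subunits of the translation initiation factor eIF3. Ifit2 restrains several viruses in the mouse brain. Human IFIT3 binds and stabilises IFIT1. Mouse Ifit3 and Ifit3b are closely related copies of each other.

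On the arrays the genes lie together on chromosome 19. By the probe positions in the files (build mm9), the Ifit2 probe stands at chr19:34650244-34650303, the Ifit3 probe at chr19:34663105-34663164, the Ifit3b probe at chr19:34687522-34687581 and the Ifit1 probe at chr19:34723827-34723886, all on the plus strand, within 73.6 kb. Exons and UTRs of that build were not looked up, since the annotation used here is of another build. The stretches upstream of the transcript starts of Ifit1, Ifit3 and Ifit3b are shown because each holds the ISRE core in duplicate, and because those of Ifit3 and Ifit3b are nearly the same. They are the 250 bases before the start, from RefSeq on GRCm38.p6, plus strand, at chr19:34640639-34640888 for Ifit1, chr19:34583279-34583528 for Ifit3 and chr19:34607707-34607956 for Ifit3b. Capitals mark the motif searched, GAAANNGAAA, which reads TTTCNNTTTC on the strand shown.
Ifit1: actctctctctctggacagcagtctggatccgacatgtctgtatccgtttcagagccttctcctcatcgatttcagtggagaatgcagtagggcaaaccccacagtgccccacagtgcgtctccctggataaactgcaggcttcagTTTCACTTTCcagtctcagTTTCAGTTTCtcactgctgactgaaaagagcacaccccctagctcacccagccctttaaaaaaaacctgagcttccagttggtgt
Ifit3: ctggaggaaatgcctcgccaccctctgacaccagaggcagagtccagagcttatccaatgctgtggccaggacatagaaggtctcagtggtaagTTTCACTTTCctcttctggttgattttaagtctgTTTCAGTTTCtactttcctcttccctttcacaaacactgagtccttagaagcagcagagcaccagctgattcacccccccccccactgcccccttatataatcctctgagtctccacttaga
Ifit3b: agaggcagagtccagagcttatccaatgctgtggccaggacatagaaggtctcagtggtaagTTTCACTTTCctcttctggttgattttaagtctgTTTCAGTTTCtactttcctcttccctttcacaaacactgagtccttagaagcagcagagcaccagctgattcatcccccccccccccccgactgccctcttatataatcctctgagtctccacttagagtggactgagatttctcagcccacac

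In Ifit1 the matches stood 104 to 95 and 85 to 76 bases before the start. In Ifit3 they stood 156 to 147 and 122 to 113 bases before it, and in Ifit3b 188 to 179 and 154 to 145 bases before it. All 3 promoters carried the same pair of core sequences, TTTCACTTTC and TTTCAGTTTC, in the same order. Where the Ifit3 and Ifit3b stretches could be aligned, 216 of 218 bases (99.1%) were identical, with 1 gap. Both windows listed for Ifit2 held no match to these letters. Bases outside these windows were not searched, and which start the Ifit2 transcripts used was not tested. For scale, 1131 of 32851 promoter windows of the same length (250 bases before and 50 after the start) in that table held the motif (3.44%), and 74 windows (0.225%) held it at least 2 times. A match is a description of letters, and binding was not measured here.

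**Figure D1:**
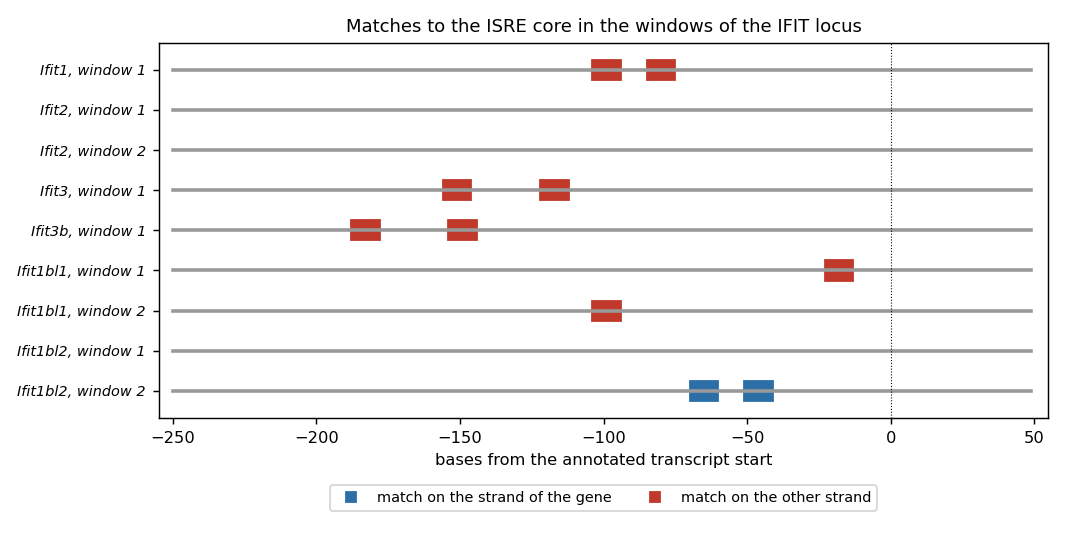
Places of GAAANNGAAA (either strand) in the promoter windows of the IFIT members and their relatives at the locus; the x axis is the distance from the annotated transcript start in bases, each line is a window, and each block is a match, blue on the strand of the gene and red on the other. Ifit1, Ifit3 and Ifit3b each show 2 matches and both Ifit2 windows show none within the bases drawn. Both Ifit1bl1 windows show 1 match each, while 1 Ifit1bl2 window shows 2 and the other none.

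All 4 members rose with IFN-beta, by 4.0 to 4.65 on the log2 scale (16.03-fold to 25.1-fold). Of the 19500 genes tested, 19.8% were called in either direction, 11.8% were called higher in IFN-beta, and 0.718% were called and at least 8-fold higher; all 4 members were in the smaller set. Levels below are log2 of the processed signal minus the 75th percentile of the array, so 0 is the brightness of that percentile, and a level of one probe is not comparable with that of another. Errors of fold changes are standard errors (SE) of limma's fit, whose adjusted p-values are Benjamini-Hochberg values over all genes tested.

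Ifit1, the member that binds incompletely methylated caps, had levels of 4.38, 4.11 and 4.21 on IFN-beta arrays 1, 2 and 3, against 0.04, -0.08 and 0.73 on controls 1, 2 and 3. The highest control lay 3.38 below the lowest IFN-beta array, and control 3 stood above the other controls. The log2 fold change was 4.0 ± 0.24 (limma, adjusted p = 8.68e-05), and it ranked 65 by size of increase among the genes tested.

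Ifit2, the antiviral member best known from the brain, had levels of 3.32, 3.42 and 3.66 on IFN-beta arrays 1, 2 and 3, against -1.01, -1.01 and -0.34 on the controls. The groups did not overlap, with a gap of 3.66. Ifit2 rose by 4.25 ± 0.23 (19.05-fold, limma adjusted p = 7.42e-05).

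Ifit3, whose human counterpart stabilises IFIT1, had levels of 6.14, 6.02 and 6.15 on IFN-beta arrays, against 1.53, 1.48 and 1.91 on the controls. Its IFN-beta arrays were the closest together of any member, within 0.14, and lay 4.11 above the highest control. The rise was 4.47 ± 0.18 (22.1-fold, limma adjusted p = 1.91e-05).

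Ifit3b, the close copy of Ifit3, had levels of 4.44, 4.26 and 4.32 on IFN-beta arrays, against -0.46, -0.55 and 0.07 on the controls. Its groups lay 4.18 apart, the widest gap among the members. It rose by 4.65 ± 0.21 (25.1-fold, limma adjusted p = 2.89e-05), and ranked 31, the highest of the members. Groups that did not overlap, with IFN-beta higher, were found for 23.4% of the genes tested (40.2% in either direction).

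**Figure D2:**
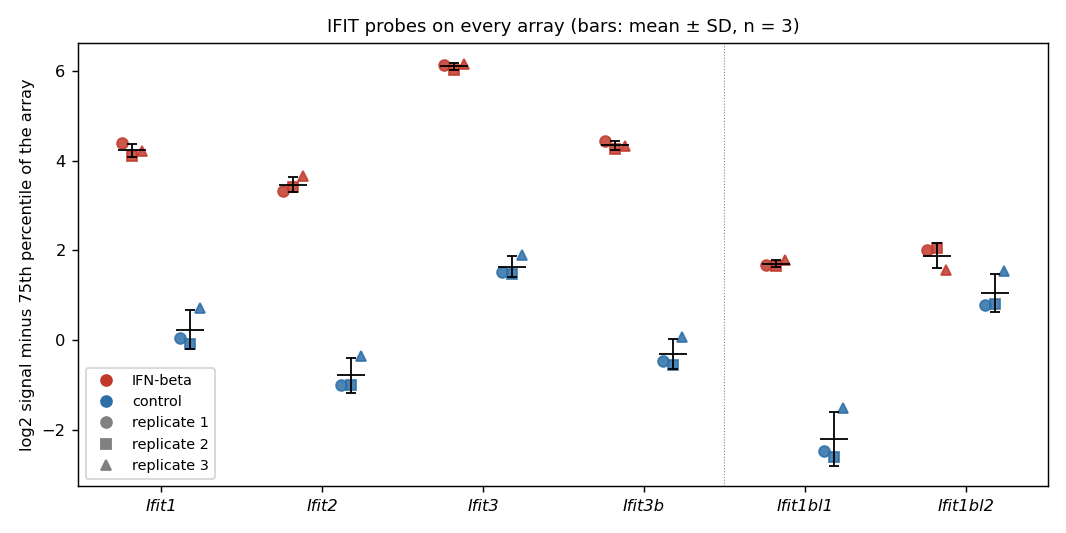
Level of each IFIT member and of the relatives Ifit1bl1 and Ifit1bl2 on every array, as log2 of the processed signal minus the 75th percentile of the array (y axis), with IFN-beta (red) left of control (blue) for each gene; the shape of a point gives the replicate and bars are the mean ± SD (n = 3). The IFN-beta and control arrays of all 4 members lie at least 3.38 apart.

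The basal level was measurable for every member. The raw mean signal of Ifit2, the dimmest in relation to its background, was 72.7, 83.5 and 108.3 times the local background on IFN-beta arrays 1, 2 and 3, and 9.47, 8.55 and 7.35 times on controls 1, 2 and 3. For Ifit3 the raw mean signal was 596.5, 537.6 and 741.8 times background on IFN-beta arrays and 52.0, 51.6 and 36.6 times on controls. All 4 probes were well above background on all 6 arrays, so none of the folds is a bound.

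No member came near the ceiling of the scanner. The raw signal of Ifit3, the brightest of these probes, was 2.53%, 2.15% and 2.48% of the saturation value on IFN-beta arrays and 0.221%, 0.206% and 0.165% on controls. That of Ifit1 was 0.615%, 0.52% and 0.556% on IFN-beta arrays and 0.0791%, 0.0701% and 0.0685% on controls. The upper levels under IFN-beta were therefore not set by saturation of the scanner, while saturation of the probes themselves was not tested.

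Within groups, the scaled levels were closer together on the IFN-beta arrays than on the controls for each member. Ifit1 averaged 4.23 ± 0.14 under IFN-beta and 0.23 ± 0.43 in controls (SD, n = 3 each). Ifit2 averaged 3.47 ± 0.17 under IFN-beta and -0.79 ± 0.38 in controls, and Ifit3 averaged 6.10 ± 0.08 under IFN-beta and 1.64 ± 0.23 in controls. For Ifit3b the means were 4.34 ± 0.09 under IFN-beta and -0.31 ± 0.34 in controls. The order of the spreads held with scaling by the spike-in controls of the array, where the ranges were 0.36 to 0.50 under IFN-beta and 0.50 to 0.84 in controls. It did not hold for all members before scaling: the coefficient of variation of the processed signal of Ifit1 was 11.5% under IFN-beta and 6.80% in controls, and that of Ifit2 was 12.2% under IFN-beta and 6.38% in controls. The difference in spread was not tested.

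Much of the basal spread was that of control 3, in which the members stood 0.40 (Ifit3) to 0.75 (Ifit1) above the mean of controls 1 and 2. Before scaling, the processed signal of Ifit1 was 5106, 4070 and 4467 on IFN-beta arrays 1, 2 and 3 and 565, 501 and 506 on controls 1, 2 and 3. The unscaled controls were thus alike for Ifit1, and the array percentiles by which they were divided were not. That percentile was 244.5, 236.4 and 241.7 on the IFN-beta arrays and 549.2, 528.2 and 305.4 on the controls. Ifit3 differed: its processed signal was 17230, 15308 and 17218 on IFN-beta arrays and 1582, 1472 and 1144 on controls. With spike-in scaling control 3 also stood above the mean of controls 1 and 2, by 0.48 (Ifit3) to 0.82 (Ifit1). Why control 3 stood higher after scaling was not tested. The fold of group means without any scaling was 8.66 for Ifit1, 10.3 for Ifit2, 11.95 for Ifit3 and 13.6 for Ifit3b, smaller than the scaled folds and in the same order.

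Controls 1 and 2 were also more like each other than any other arrays, with a robust SD between them of 0.11 (log2) over genes above background, against 0.33 and 0.35 between either and control 3 and 0.24 to 0.31 among IFN-beta arrays. Genes of fibroblasts and stroma were high on these controls and low elsewhere: their 17 markers had a summed level of 3.23 to 3.74 on IFN-beta arrays, against 643, 741 and 2.19 on controls 1, 2 and 3. Of the 17, 9 were above background on each IFN-beta array, against 17, 17 and 8 on controls 1, 2 and 3, and Col3a1, Lum and Postn were among the dim ones. Erythroid genes followed the same pattern, with sums of 2.11 to 2.90 on IFN-beta arrays and 161, 148 and 0.894 on controls. Monocyte and macrophage markers, 12 of 12, were above background on every array, with a summed level of 1401 to 1479 on IFN-beta arrays and 820.3 to 1256 on controls. Basophil and mast cell markers rose in 7 of 7, with sums of 67.7 to 99.9 on IFN-beta arrays and 7.06 to 12 on controls, and neutrophil markers in 7 of 12, with sums of 928 to 1135 on IFN-beta arrays and 562 to 751 on controls. Plasmacytoid dendritic cell markers rose in 4 of 8, with sums of 53.1 to 60.5 on IFN-beta arrays and 57.4 to 74.1 on controls. Of the 12 monocyte and macrophage markers, 2 rose (Ly6c2 and Fcgr1) and 3 fell (Cd14, Cx3cr1 and Itgam). Over all genes tested, 11.8% were called higher and 8.03% lower. The part of these genes in the IFIT result was not tested, and in bulk RNA fewer cells of a type and less RNA per cell cannot be told apart. Against control 3 alone, where the fibroblast markers were no higher than under IFN-beta, the members rose by 3.51 (Ifit1), 3.81 (Ifit2), 4.20 (Ifit3) and 4.27 (Ifit3b). That comparison has a single control, which is assumed to vary like the IFN-beta arrays. With the mean of controls 1 and 2 counted as 1 sample, the rises were 3.88, 4.14, 4.40 and 4.55 in that order of genes. With the slide as a block they were 4.15, 4.11, 4.50 and 4.75 (limma adjusted p = 0.00435, 0.00423, 0.00223 and 0.00232). Within slide 1 the values were the same by design: slide 2 held no control, so both settings compare IFN-beta 1 alone with the controls. With the slide as a block, IFN-beta 2 and 3 add only to the estimate of error. Within slide 1 the single IFN-beta array is assumed to vary like the controls.

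**Figure D3:**
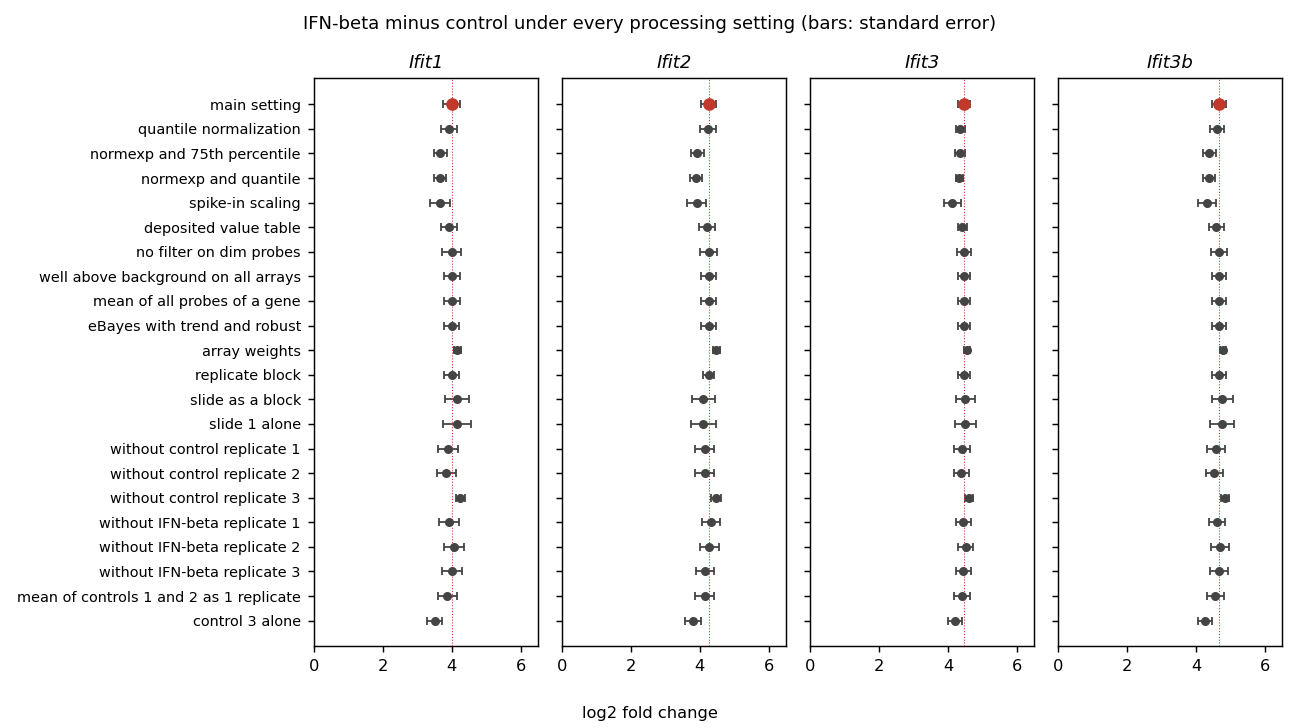
Log2 fold change (x axis, IFN-beta minus control) of each IFIT member under the main processing (red) and under each of 21 alternatives (dark); bars are standard errors and the dotted line is the main value. The members stay between 3.51 and 4.84 in every setting drawn.

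The fold changes of the members ranked Ifit3b, Ifit3, Ifit2 and Ifit1 from highest to lowest. To ask whether these ranks exceed the spread between arrays, the ratio of 2 members was taken within each array and compared between groups, for 6 pairs, by an exact 2-sided permutation test. With 3 arrays against 3 the smallest p this test can give is 0.1, so no pair could pass 0.05. For Ifit3b over Ifit1, the log2 ratio was 0.06, 0.15 and 0.11 on IFN-beta arrays and -0.50, -0.48 and -0.65 on controls. The groups did not overlap, and the fold change of Ifit3b was 1.57 times that of Ifit1 (difference 0.65 ± 0.06, SE, exact permutation p = 0.1, adjusted over 6 pairs 0.2).

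Ifit3 over Ifit1 gave log2 ratios of 1.75, 1.91 and 1.95 on IFN-beta arrays and 1.49, 1.56 and 1.18 on controls, a difference of 0.46 ± 0.13. Ifit3b over Ifit2 gave 1.12, 0.84 and 0.66 on IFN-beta arrays and 0.55, 0.45 and 0.42 on controls, a difference of 0.40 ± 0.14. In both pairs the groups did not overlap, and the exact permutation p was again 0.1 (adjusted 0.2). Neighbours in the ranking overlapped between groups: the difference was 0.18 ± 0.07 for Ifit3b over Ifit3 (exact permutation p = 0.2, adjusted 0.24), 0.21 ± 0.13 for Ifit3 over Ifit2 (exact permutation p = 0.2, adjusted 0.24) and 0.25 ± 0.16 for Ifit2 over Ifit1 (exact permutation p = 0.3, adjusted 0.3). The test could separate no pair at 0.05, so it does not set neighbours apart from the other pairs. The order of neighbours was left undecided by these arrays. On slide 1, which held IFN-beta 1 and all controls, Ifit2 over Ifit1 was -0.049, and Ifit3b over Ifit3 came to 0.03 with normexp background correction.

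**Figure D4:**
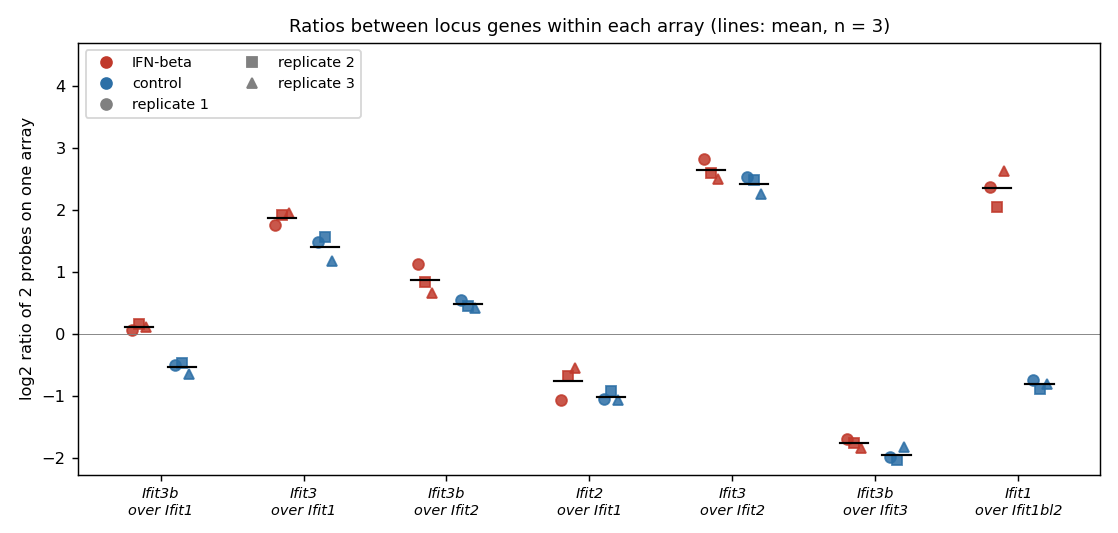
Log2 ratio within an array (y axis) for the 6 pairs of IFIT members and for Ifit1 over its neighbour Ifit1bl2, with IFN-beta (red) left of control (blue); points are arrays, shaped by replicate, and lines are group means. In Ifit3b over Ifit1, Ifit3 over Ifit1, Ifit3b over Ifit2 and Ifit1 over Ifit1bl2 the IFN-beta points all lie above the controls, and in the other pairs the groups overlap.

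Whether the Ifit3 and Ifit3b probes read separate transcripts bears on their nearness. The probes are 60 bases long, and the longest run they share is 8 bases, in capitals in the 30-base stretches shown here because they hold that run. The Ifit3 stretch is bases 31 to 60 of its probe and the Ifit3b stretch bases 1 to 30.
Ifit3 probe: atcatgtagggaatggagCTTAAAGCagac
Ifit3b probe: CTTAAAGCtcacagaccaccttttgatcac
Runs shared by other pairs of these probes were 5 to 7 bases long. Transcript sequences were not used here, so whether one probe also binds the other transcript was not tested, and the values of these close copies stay uncertain to that extent.

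The relatives Ifit1bl1 and Ifit1bl2 lie between the members on the minus strand. Ifit1bl1 had levels of 1.67, 1.66 and 1.79 on IFN-beta arrays, against -2.48, -2.61 and -1.51 on controls, and rose by 3.91 ± 0.29 (14.98-fold, limma adjusted p = 1.98e-04). Its groups did not overlap, as for the members. Both promoter windows of Ifit1bl1 held 1 match each to GAAANNGAAA. Ifit1bl2 had levels of 2.01, 2.07 and 1.57 on IFN-beta arrays and 0.79, 0.81 and 1.54 on controls. Its lowest IFN-beta array lay only 0.04 above control 3, and its log2 fold change of 0.84 ± 0.26 (1.79-fold) did not pass (limma adjusted p = 0.0561). Without scaling the fold of its group means was 0.966, and it was called in 6 of 21 alternatives, for example at 1.08 without control 3 (limma adjusted p = 0.00495). Of the 19500 genes tested, 9390 were called without control 3 and 12734 with array weights, another of the 6, against 3866 in the main processing. The rest of the 6 were normexp with the percentile (limma adjusted p = 0.0285) and normexp with quantile normalization (0.0276). They also included eBayes with trend and robust options (0.0224) and probes well above background on all arrays (0.0405). In that order, 5487, 4967, 4364 and 3892 of all genes tested were called there.

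Ifit1bl2 was set against each member after its values were seen. The log2 ratio of Ifit1 to Ifit1bl2 was 2.37, 2.04 and 2.63 on IFN-beta arrays and -0.75, -0.89 and -0.81 on controls. The groups lay far apart, and the fold change of Ifit1 was 8.96 times that of Ifit1bl2 (difference 3.16, exact permutation p = 0.1, the smallest possible, and 0.1 adjusted over the 4 pairs with Ifit1bl2). The differences for Ifit2, Ifit3 and Ifit3b were 3.41, 3.63 and 3.81. One of the promoter windows of Ifit1bl2 shares 245 bases with that of Ifit1, on the opposite strand, with starts 146 bases apart. Both matches to GAAANNGAAA in the Ifit1 window, at chr19:34640785-34640794 and chr19:34640804-34640813 (GRCm38.p6), lie in that window too, 51 to 42 and 70 to 61 bases before the Ifit1bl2 start. The other Ifit1bl2 window held no match, and which start the transcripts used was not tested.

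Of the 6 tested genes beside the cluster, chosen after their values were seen, 0 were called higher and 2 lower, against 11.8% and 8.03% of all genes tested, and nothing is read from so small a count. On the side of Ifit2, Fas, a death receptor, fell by 1.54 on the log2 scale (limma adjusted p = 0.0353), Ch25h, which makes an antiviral oxysterol, was at -0.83 (adjusted p = 0.189), and Lipa, the lysosomal acid lipase, was at -0.14 (adjusted p = 0.702). On the side of Ifit1, Pank1, a pantothenate kinase, fell by 1.37 (limma adjusted p = 0.00687), while the log2 fold changes of the kinesin gene Kif20b and the serotonin receptor gene Htr7 were 0.19 and -0.03 (adjusted p = 0.653 and 0.945).

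**Figure D5:**
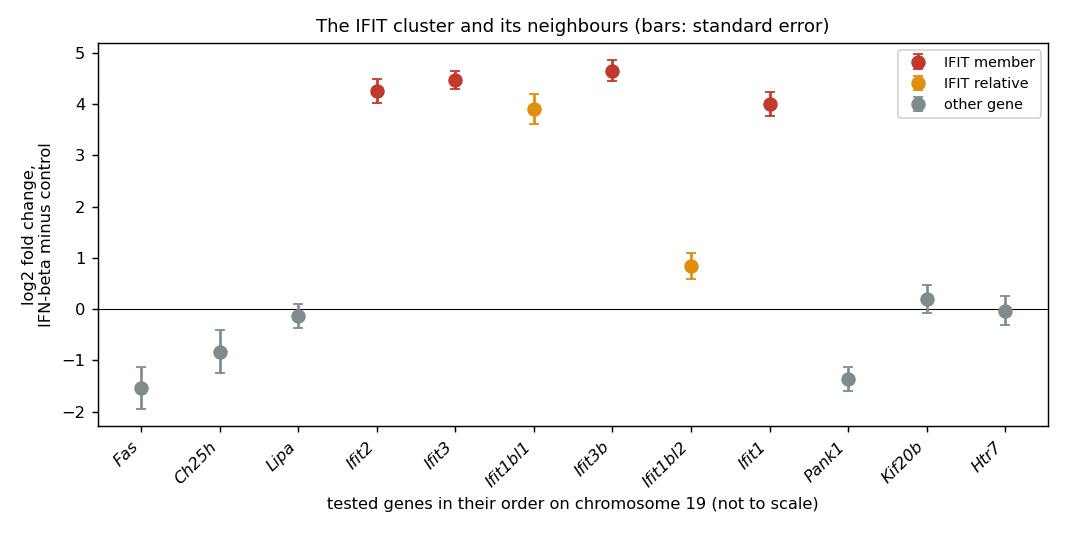
Log2 fold change (y axis, IFN-beta minus control, bars are standard errors) of the IFIT members, their relatives and 3 tested neighbours on each side, in their order on chromosome 19 (x axis, not to scale). The 4 members and Ifit1bl1 lie between 3.91 and 4.65, and all other genes drawn at or below 0.84.

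Genes around the IFIT proteins were counted from lists, and the median log2 fold change of each is given beside that of all genes tested, 0.10, with 11.8% of them called higher and 8.03% lower. Those shares belong to the main processing, where 2301 of 19500 genes were called higher. That number was 6448 without control 3, 666 with the slide as a block and 1037 with spike-in scaling. List counts at those settings stand beside these numbers, and nothing about a list is read from their change. Of 7 genes of the path to ISGF3, 3 rose and none fell (median 0.47), among them Stat2 by 2.77 ± 0.23 and Irf9 by 1.17 ± 0.20. The receptor gene Ifnar1 was at 0.41 (limma adjusted p = 0.122). With the slide as a block, 1 of the 7 was called, and without control 3, 6 were. Of 6 interferon regulatory factors, 2 rose (median 0.33): Irf7, which amplifies interferon production, by 4.32 ± 0.30, and Irf1 by 1.24 ± 0.19. With the slide as a block 1 of the 6 was called.

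Among 9 inhibitors and modifiers of the pathway, 3 rose and none fell (median 0.42). Usp18, which blocks the receptor, rose by 4.33 ± 0.27, Socs1, an inhibitor of Janus kinases, by 3.52 ± 0.15, and Isg15, the ubiquitin-like protein that Usp18 removes, by 3.79 ± 0.25. Without control 3, 5 of the 9 were called higher and 1 lower. The other antiviral proteins that act on RNA had the highest median of these lists: 19 of 20 rose and none fell (median 2.62). With the slide as a block 15 of the 20 were called, and within slide 1, with its single IFN-beta array, 10 were. Oasl1, a relative of the oligoadenylate synthetases, rose by 4.50 ± 0.28, the nucleic acid sensor Zbp1 by 4.30 ± 0.28, the helicase Ddx60 by 4.09 ± 0.26 and the exonuclease Isg20 by 3.80 ± 0.15, so that these rises were within the range of the IFIT members or just below it.

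The counts for capping and eIF3 genes stand beside the 11.8% of all genes called higher, and nothing particular to these lists is read from them. Of 4 genes for methylation of the RNA cap, 1 rose (median 0.19), the ribose methyltransferase gene Cmtr1 by 1.25 ± 0.19, and it was not called with the slide as a block. Of 13 eIF3 subunits, 2 rose and none fell (median 0.16), Eif3d by 0.82 ± 0.20 and Eif3c by 0.78 ± 0.19, and Eif3e was at 0.11 (limma adjusted p = 0.75). Against control 3 alone the median of the 13 was -0.22. Without control 3, 7 of the 13 were called, at a setting where 6448 of all 19500 genes were called higher. Scaled by the spike-in controls, 0 of 13 eIF3 subunits and 1 of 4 cap methylation genes were called, the medians turned to -0.18 for the eIF3 list and -0.15 for the cap methylation list, and that of the interferon regulatory factors was -0.01, with 2 of 6 still called. Of 7 genes of mitochondrial antiviral signalling and DNA sensing, 2 rose (median 0.51), the DNA sensor Cgas by 1.82 and its partner Sting1 by 0.82, and Mavs, the adaptor of the RNA helicases, was at -0.29; with the slide as a block 1 of the 7 was called.

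The tested genes whose profiles lay nearest to each member were found by the Euclidean distance between centred log2 profiles over the 6 arrays. For Ifit1 they were Rsad2 (0.32), Calcb (0.34) and Isg15 (0.34), all nearer than the nearest other member, Ifit2 (0.50). Rsad2 encodes viperin, an antiviral enzyme, and Calcb a neuropeptide. For Ifit2 they were Rsad2 (0.285), Usp18 (0.32) and Hsh2d (0.35), an adaptor of immune cells. For Ifit3 and Ifit3b the nearest profile was that of each other (0.29); outside the family, Ifit3 lay nearest to the collagenase gene Mmp13 (0.37), Mx1 (0.42) and Usp18 (0.46), and Ifit3b to Mx1 (0.32), Oasl1 (0.39) and the chemokine gene Ccl7 (0.45). These distances describe likeness over 6 arrays of 2 groups, and the genes named here all rose, by 3.79 to 4.57. The profiles were not scaled, so a distance also reflects the difference in fold change between genes, and shared regulation was not tested.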

How the data were processed

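Each deposited scanner file gives the intensity of single spots on a 1-colour array, which the authors read out with Agilent Feature Extraction 12.0.3.1 without normalization between arrays, per the file headers. A further deposited table gives log2 values, whose normalization is not given in the sources used here beyond limma, named in the submitters' processing notes; it served as an alternative. Outlier spots, 135 to 174 per array, were left out and spots of a probe averaged. From log2 of the processed signal the 75th percentile over the probes of that array was subtracted. A probe was kept if all arrays of either group had it well above background, and the probe with the highest mean stood for a gene. The groups were compared with limma 3.58.1 (R 4.3.3, the data.table package, version 1.17.8) by lmFit and eBayes, 2-sided, with Benjamini-Hochberg adjustment over 19500 genes and a threshold of 0.05. Ratios of members within arrays were compared by exact permutation. The code of the fit was run on simulated data with 200 changed genes and independent noise. That simulation lacks the likeness of controls 1 and 2 and the slides, so it does not bear on their effect.

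Whether replicates were separate mice or cultures is not stated, so p-values reflect the spread of these 6 samples, which may be technical. The number of arrays limits precision. Slide 1 held the controls and IFN-beta 1, slide 2 IFN-beta 2 and 3. Fold changes with the slide as a block therefore rest on IFN-beta 1 against the controls. The members, lists and rules were chosen with earlier results of these data known. Named genes are the members, both relatives at the locus, the called genes with the lowest p of each list, up to 4, and the 3 nearest profiles of each member. Neighbours at the locus, and list genes that were not called, were chosen after their values were seen. Symbols and promoters came from RefSeq (GRCm38.p6), and positions of probes are those of the files (mm9). Protein sequences were not analysed here, and a few genes that the rule names are not reported.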

Additional observations from a re-analysis of the deposited data

How the results depend on the processing

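All 4 members stayed called in each of 21 alternatives, with log2 fold changes of 3.51 to 4.25 (Ifit1), 3.81 to 4.48 (Ifit2), 4.13 to 4.60 (Ifit3) and 4.27 to 4.84 (Ifit3b); their highest adjusted p, 0.0203 to 0.0276 (limma), came within slide 1. There and against control 3 alone, one arm is a single array, assumed to vary like the other group. Some alternatives could not move the members' fold changes, since each member has 1 probe, well above background on all arrays. These were both changes of the filter, the mean of all probes and the eBayes options. The replicate block could not move them either. Leaving out 1 array at a time gave 3.85 to 4.25, 4.14 to 4.47, 4.39 to 4.60 and 4.53 to 4.84 in that order of genes. Scaling by spike-in controls gave 3.66, 3.91, 4.13 and 4.31, and moved the median of all genes to -0.24, against 0.10. Relative to the median of each scaling the rises were 3.90, 4.15, 4.37 and 4.55 under both. That likeness was fixed in advance, since both scalings subtract a constant from each array and so shift every gene alike.

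The count of called genes depended far more on the setting. It was 3866 in the main processing, 1697 with no filter on dim probes, 12734 with array weights (whose estimate did not reach its convergence tolerance), 1040 with the slide as a block, 369 within slide 1, 1993 with the mean of controls 1 and 2 as 1 sample and 1864 against control 3 alone; the cause was not tested. Leaving out 1 array gave 1830 to 9390 genes, the highest without control 3, against 1830 and 2014 when control 1 or control 2 was left out, and 1855 and 2050 when IFN-beta 2 or IFN-beta 3 was. The share of called genes that were higher in IFN-beta was 59.5%, but 24.8% with spike-in scaling and 69.9% with normexp and the percentile. The median of all genes was 0.31 with no filter.

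Samples with the same replicate number deviated together only weakly (r = 0.072, 0.022 and 0.073), although 6 of 6 samples correlated best with their own number, so the numbers were not taken as pairs. With the number as a replicate block, 3271 genes were called and the members' values were 4.0, 4.25, 4.47 and 4.65 (limma adjusted p = 0.00193, 0.00123, 0.00123 and 0.00124).

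Between members, Ifit2 over Ifit1 reversed to -0.049 within slide 1, against 0.25; the other pairs kept their sign in each of 10 alternatives. The alternatives for the pairs with Ifit1bl2 were chosen after seeing the data, and the difference for Ifit1 ranged from 2.89 to 3.32. The mean of all probes was not run for pairs, since each member has 1 probe.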
